A study of Mus musculus with 16 samples.

Results

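The 10 Toll-like receptor genes Tlr1 to Tlr9 and Tlr13 were followed in macrophages and microglia sorted from the mouse brain after injection of α-synuclein (α-syn). They were taken by symbol as candidate sensors of α-syn and are 10 of the 18576 genes that the expression tables list. Each of the 10 was listed in at least 1 table. Bilateral injections of murine α-syn into the striatum were given at 12 weeks of age, either as monomers (MONO, the control) or as pre-formed fibrils (PFF), to CD163KO mice (CD163tm1.1(KOMP)Vlcg) and to their wild type (WT, C57BL/6N) littermates. All mice of the groups used here thus received α-syn, and uninjected mice were not analysed here. Brain cells were sorted 2 months post-injection (p.i.) among CD11b+ cells by their level of CD45, low to intermediate for microglia and high for macrophages, and their RNA was sequenced with SMART-seq2, a full-length cDNA method for small amounts of RNA. The macrophage gate also takes border-associated macrophages, neutrophils and NK cells, so that a level in this population is an average over several cell types, and fewer cells of a type cannot be told apart from less RNA per cell.

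There was 1 library for each of the 8 combinations of sex, genotype and treatment in each population, which gave 16 libraries with 8648751 to 21433841 estimated counts each. Between 4 and 7 mice were injected per combination and triplicates were sequenced, and the sources used here do not say whether a table holds 1 of them or all pooled. The study excluded the male CD163KO MONO libraries for inconsistent technical replicates. It also removed outlier samples after principal component analysis. The sources used here do not say whether the tables hold those samples. Mice were injected in separate batches, and the batch of a library is not given in the sources used here. Values of the excluded libraries are given here as levels, but they enter no main test.

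Toll-like receptors are membrane proteins of innate immune cells that recognise microbial products and products of damaged tissue. Tlr2 pairs with Tlr1 or Tlr6 at the cell surface to sense lipopeptides, Tlr4 senses lipopolysaccharide together with the co-receptors Cd14 and Ly96 (MD-2), and Tlr5 senses flagellin. Tlr3, Tlr7, Tlr8, Tlr9 and Tlr13 sit in endosomes and read nucleic acids, namely double-stranded RNA (Tlr3), single-stranded RNA (Tlr7 and Tlr8), unmethylated CpG DNA (Tlr9) and bacterial ribosomal RNA (Tlr13). All except Tlr3 signal through the adaptor Myd88 towards NF-kappaB, whereas Tlr3 uses Ticam1 (TRIF), and Tlr4 uses both. In the mouse genome (GRCm38.p6, RefSeq), Tlr1 and Tlr6 are neighbours on chromosome 5 (64924680 to 64933600 and 64953092 to 64970942). Tlr8 (167241123 to 167264329) and Tlr7 (167303380 to 167330574) are neighbours on the X chromosome, which also carries Tlr13 (106143275 to 106160493). The remaining members lie on chromosome 3 (Tlr2, 83836272 to 83841824), 8 (Tlr3, 45395665 to 45411075), 4 (Tlr4, 66827551 to 66846581), 1 (Tlr5, 182954752 to 182976044) and 9 (Tlr9, 106222598 to 106226876).

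Tlr3 and Tlr8 were the members whose levels separated the populations without overlap, in opposite directions. The 250 bases before 1 annotated start site of each are shown as the promoter sequence of these members, although no readout of these data bears on it directly. The Tlr3 window lies inside the span of the locus given above, so that it precedes an inner annotated start and not the outermost one. The windows are from RefSeq on GRCm38.p6, Tlr3 at chr8:45410381-45410630 and Tlr8 at chrX:167264330-167264579, both on the minus strand and written 5′ to 3′ in the direction of the gene. Capitals mark matches, on either strand, to GAGGAA, the core letters bound by the myeloid transcription factor PU.1.
Tlr3: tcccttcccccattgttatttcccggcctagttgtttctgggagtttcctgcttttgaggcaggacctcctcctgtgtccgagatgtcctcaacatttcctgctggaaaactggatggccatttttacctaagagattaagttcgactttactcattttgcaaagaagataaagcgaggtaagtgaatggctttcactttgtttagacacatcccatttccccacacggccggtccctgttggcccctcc
Tlr8: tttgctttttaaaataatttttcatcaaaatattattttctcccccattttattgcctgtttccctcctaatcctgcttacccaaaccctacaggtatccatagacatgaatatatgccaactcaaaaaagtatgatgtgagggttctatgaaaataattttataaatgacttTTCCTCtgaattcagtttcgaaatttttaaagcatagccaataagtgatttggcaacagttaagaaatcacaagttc
The Tlr3 window holds no match to these letters. The Tlr8 window holds 1 match, on the opposite strand, which begins 77 bases before the start. The letters occurred in 23.3% of the 32851 promoter windows searched, from which 1 chromosome was left out. The 8 members with a window had 10 windows, and the letters were found in 4 of these, for Tlr1, Tlr8, Tlr9 and Tlr13.

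Several libraries stood apart from the others of their population. The 10 genes with the most counts took 16.5% and 16.6% of the counts in the macrophage libraries labelled male WT PFF and male CD163KO MONO, against 39.7% to 64.0% in the other 6 macrophage libraries. In microglia the same 2 conditions stood on the other side, with 58.7% and 47.7% against 13.5% to 16.4%. FPKM, the fragments assigned to a transcript per unit of its length and of the library's total, are shares of a library and therefore moved with this. Counts were rescaled with TMM factors, which assume that most genes do not differ, and the rescaled counts (TMM-scaled CPM, each a share of the scaled library total) carry the tests. Markers of microglia and of border-associated macrophages separated the sorted populations in all 16 libraries. The summed FPKM of 12 markers of homeostatic microglia was 17700 to 43400 in microglia and 956 to 1880 in macrophages, while that of 12 markers of border-associated macrophages was 29.5 to 173 in microglia and 1960 to 5350 in macrophages. Neutrophil markers summed to 22200 to 135000 FPKM in macrophages, above the border-associated markers there, and 1060 to 2880 in microglia. Cd163 had 748 to 5275 counts in WT macrophages and 0 or 1 in CD163KO macrophages. In microglia it was low, with 46 and 101 counts in female WT and 23 and 11 in female CD163KO. The male microglia ran against their labels, with 0 and 1 counts in WT and 10 and 5 in CD163KO, so that Cd163 does not bear out the genotype of these 4 libraries. The female CD163KO MONO microglia library also held 799 counts of 4 Y-linked genes, against 0 to 2 in the other female libraries and 434 to 1997 in the male microglia. Its label is therefore in doubt.

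The question of which receptors each population carries was addressed first, with the levels per transcript length. In microglia, Tlr13, Tlr2 and Tlr7 led with similar levels. Tlr13 ranged from 14.9 to 94.9 FPKM (median 60.9), Tlr2 from 9.05 to 76.6 (median 58.5) and Tlr7 from 17.4 to 120 (median 57.3). Their order was not fixed, since Tlr13 exceeded Tlr2 in 5 of the 8 libraries and Tlr2 exceeded Tlr7 in 3 of 8. Tlr1 followed with a median of 26.5 FPKM (3.44 to 33.5), below Tlr7 in all 8 libraries. Tlr3 (median 15.2), Tlr6 (13.6) and Tlr4 (11.4) came next, and Tlr3 exceeded Tlr6 in 5 of 8 libraries while Tlr6 exceeded Tlr4 in all 8. Tlr5, with a median of 2.73 FPKM (0.41 to 4.85), was below Tlr4 in every library. Tlr8 (0 to 0.54 FPKM) and Tlr9 (0.03 to 3.09 FPKM) were the lowest, and neither was consistently above the other.

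In macrophages, Tlr2 led with a median of 20.5 FPKM (14.6 to 106) and exceeded Tlr13 in 7 of 8 libraries. Tlr13 had a median of 11.9 FPKM (6.63 to 123), Tlr1 of 7.08 (1.52 to 28.8) and Tlr7 of 6.71 (2.96 to 76.5), and Tlr7 exceeded Tlr1 in 6 of the 8 libraries in spite of the order of the medians. Tlr4 (1.01 to 19.4 FPKM) and Tlr8 (1.11 to 25.9 FPKM) had near-equal medians, and each was the higher in 4 of the 8 libraries. Tlr6 (median 1.87 FPKM), Tlr5 (0.675), Tlr3 (0.260) and Tlr9 (0.065) were the lowest. The upper ends for Tlr2, Tlr4, Tlr7, Tlr8 and Tlr13 all came from the male WT PFF library, and the next values from the male CD163KO MONO library. In the same male WT PFF library Tlr3, Tlr5, Tlr6 and Tlr9 had no count at all. From the counting of reads alone this allows up to 3 counts, or 0.164 CPM before TMM scaling. This library listed 8375 genes, against 9773 to 12988 in the other macrophage libraries. The bound does not cover RNA lost before sequencing.

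**Figure D1:**
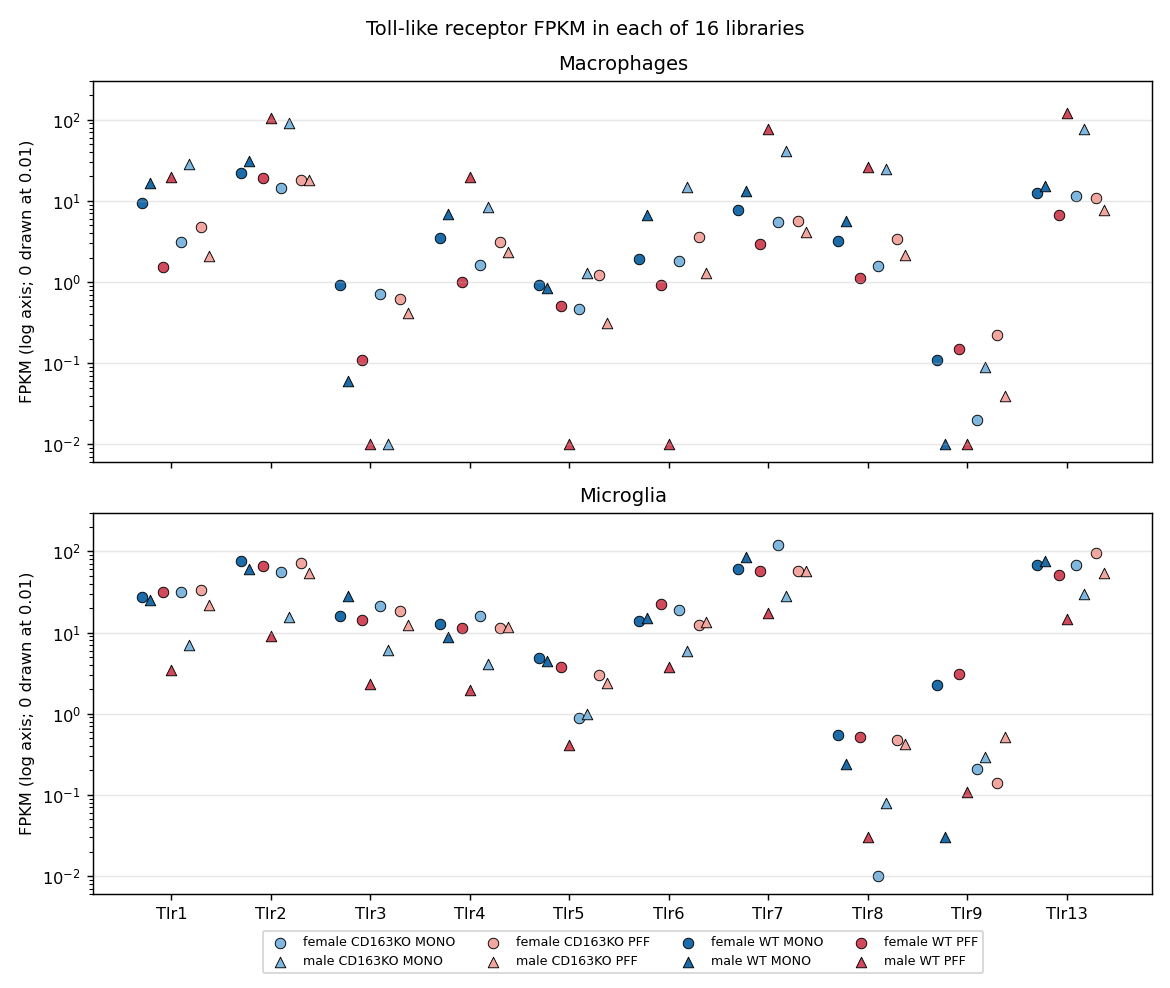
FPKM of the 10 receptors (log axis, with 0 drawn at 0.01) in each of the 8 macrophage and 8 microglia libraries, 1 point per library, circles for females and triangles for males. The macrophage triangles for male WT PFF and male CD163KO MONO lie above the other macrophage libraries for Tlr2, Tlr7, Tlr8 and Tlr13, and the microglia triangles of the same conditions lie below the other microglia for Tlr1, Tlr2, Tlr3, Tlr4, Tlr6, Tlr7 and Tlr13.

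Microglia were then compared with macrophages of the same mice groups, condition by condition. Tlr3 and Tlr7 were higher in microglia and Tlr8 was lower. For Tlr3, the RNA sensor that signals through Ticam1, the TMM-scaled CPM was 23.2 to 58.7 in microglia (median 32.7) and 0 to 6.80 in macrophages (median 2.78). All 8 microglia libraries lay above all 8 macrophage libraries. Over the 7 conditions that the study kept, the log2 difference was 4.21 (SE 0.965, adjusted p = 0.00965, edgeR quasi-likelihood test with each condition as a block). Since macrophage counts of Tlr3 included zeros, the size of this fold is uncertain, whereas its direction held in every pair of libraries.

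Tlr8, a single-stranded RNA sensor, was higher in the macrophage gate, which also takes neutrophils and NK cells. It had 16.5 to 89.4 TMM-scaled CPM in macrophages (median 24.4) and 0 to 1.27 in microglia (median 0.742). The female CD163KO MONO microglia library held no Tlr8 count, which allows up to 0.184 CPM before TMM scaling. The other 7 microglia libraries held 2 to 36 counts. The populations did not overlap, and the log2 difference was -5.49 (SE 0.902, adjusted p = 0.00127, edgeR). The summed FPKM of 8 monocyte markers was 306 to 3030 in macrophages and 7.58 to 84.3 in microglia, and the part of the cell types within the gates in these differences was not tested. Tlr7, the neighbour of Tlr8 on the X chromosome with a related ligand, went the other way. Tlr7 had 109 to 229 TMM-scaled CPM in microglia (median 122) and 34.3 to 217 in macrophages (median 43.8), with a log2 difference of 1.40 (SE 0.313, adjusted p = 0.00841, edgeR). Without the microglia library that held Y-linked counts, the differences were 4.58 for Tlr3, -5.02 for Tlr8 and 1.25 for Tlr7, and all 3 were called. Tlr7 was higher in microglia in 7 of 8 pairs, and only the male WT PFF macrophage library reached the range of microglia.

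The other 7 members did not pass the test at this scaling. The log2 differences, microglia minus macrophages, were 0.51 (SE 0.400) for Tlr1, -0.45 (SE 0.280) for Tlr2, 0.06 (SE 0.361) for Tlr4, 0.78 (SE 1.10) for Tlr5, 1.48 (SE 0.911) for Tlr6, 1.89 (SE 1.46) for Tlr9 and 0.52 (SE 0.315) for Tlr13, with adjusted p between 0.279 and 0.926 (edgeR). Genes were called at an adjusted p of at most 0.05 and a log2 difference of at least 1. The test called 3 of the 10 members, while it called 2358 of 12819 genes (18.4%), 884 higher and 1474 lower in microglia. The median over the 10 members was 0.652 and over all genes 0.321. Of 12923 genes, 10.7% did not overlap between the 8 and 8 libraries in TMM-scaled CPM and 6.76% in FPKM, and Tlr3 and Tlr8 were the members that did not overlap on either scale.

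These differences depended on the scaling. With library totals in place of TMM factors, the median of all genes moved to 1.94. On that scale 6291 of 12819 genes were called, 5695 of them higher in microglia. On that scale 6 members were called higher, and Tlr2 had a difference of 1.22 (adjusted p = 0.0922, edgeR) instead of -0.45. The FPKM as deposited showed the same pattern, with 6 of 8 pairs higher in microglia for Tlr1, Tlr2, Tlr4, Tlr7 and Tlr13. Under both scalings Tlr3 and Tlr7 were called higher and Tlr8 lower in microglia. Without both male WT PFF libraries, an alternative chosen after the data had been seen, 4074 genes were called and the differences were 3.62 for Tlr3, 1.68 for Tlr7 and -5.02 for Tlr8 (edgeR). In the 8 female libraries alone (likewise), 3567 of 12128 genes were called. The differences there were 3.23 for Tlr3, 1.80 for Tlr7 and -4.89 for Tlr8. Tlr1 (1.02, adjusted p = 0.0351) and Tlr6 (1.21, adjusted p = 0.0307) passed in addition (edgeR). That fit holds the microglia library with Y-linked counts, labelled female CD163KO MONO. In the 6 female libraries of the other conditions, the differences were 3.37 for Tlr3, 1.60 for Tlr7 and -4.13 for Tlr8, all called, whereas Tlr1 (0.95, adjusted p = 0.0889) and Tlr6 (1.16, adjusted p = 0.0766) were not (edgeR).

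**Figure D2:**
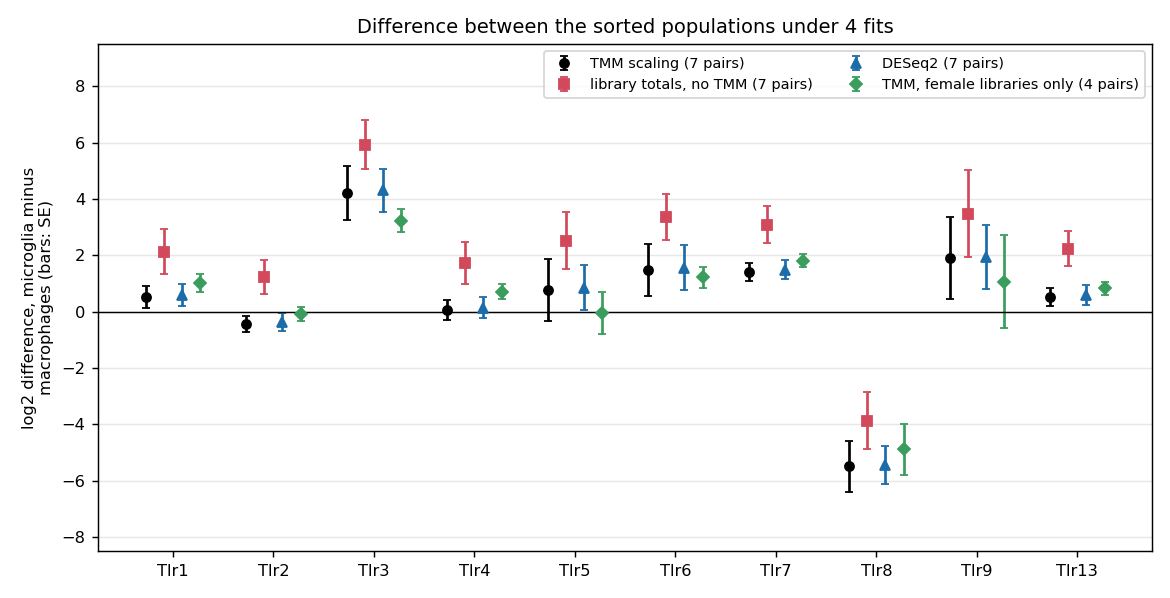
Log2 difference of each receptor between microglia and macrophages (points, with SE as bars) under 4 fits, namely TMM scaling, library totals without TMM, DESeq2, and TMM in the female libraries. Tlr3 and Tlr7 lie above 0 and Tlr8 below 0 in all 4, whereas Tlr2 changes side when TMM factors are left out.

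Ratios between receptors within a library do not depend on its scaling. The FPKM ratio of Tlr8 to Tlr7 was 0.292 to 0.595 in macrophages and 0 to 0.00902 in microglia. The ratio of Tlr3 to Tlr7 was 0.135 to 0.328 in microglia and 0 to 0.132 in macrophages, so that these ranges did not overlap, by a narrow margin. Conversely, the ratio of Tlr2 to Tlr7 was 1.38 to 6.51 in macrophages and 0.463 to 1.28 in microglia. The ranges of these 3 ratios include the libraries that stood apart. The other 4 ratios computed overlapped between the populations, with Tlr13 to Tlr7 at 1.16 to 2.24 in macrophages and 0.574 to 1.66 in microglia, Tlr4 to Tlr2 at 0.0524 to 0.217 and 0.145 to 0.289, Tlr1 to Tlr2 at 0.0789 to 0.527 and 0.362 to 0.570, and Tlr6 to Tlr1 at 0 to 0.749 and 0.367 to 1.10. Tlr2 accounted for 28.5% to 56.4% of the summed FPKM of the 10 receptors in macrophages and for 15.8% to 27.1% in microglia. Tlr8 took 3.25% to 8.61% in macrophages and at most 0.196% in microglia, and Tlr3 took 4.39% to 9.23% in microglia and at most 1.76% in macrophages. Tlr4 had similar shares in both, 2.96% to 7.06% in macrophages and 2.92% to 5.18% in microglia. The ratios were examined after the levels were known and are given without a test.

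**Figure D3:**
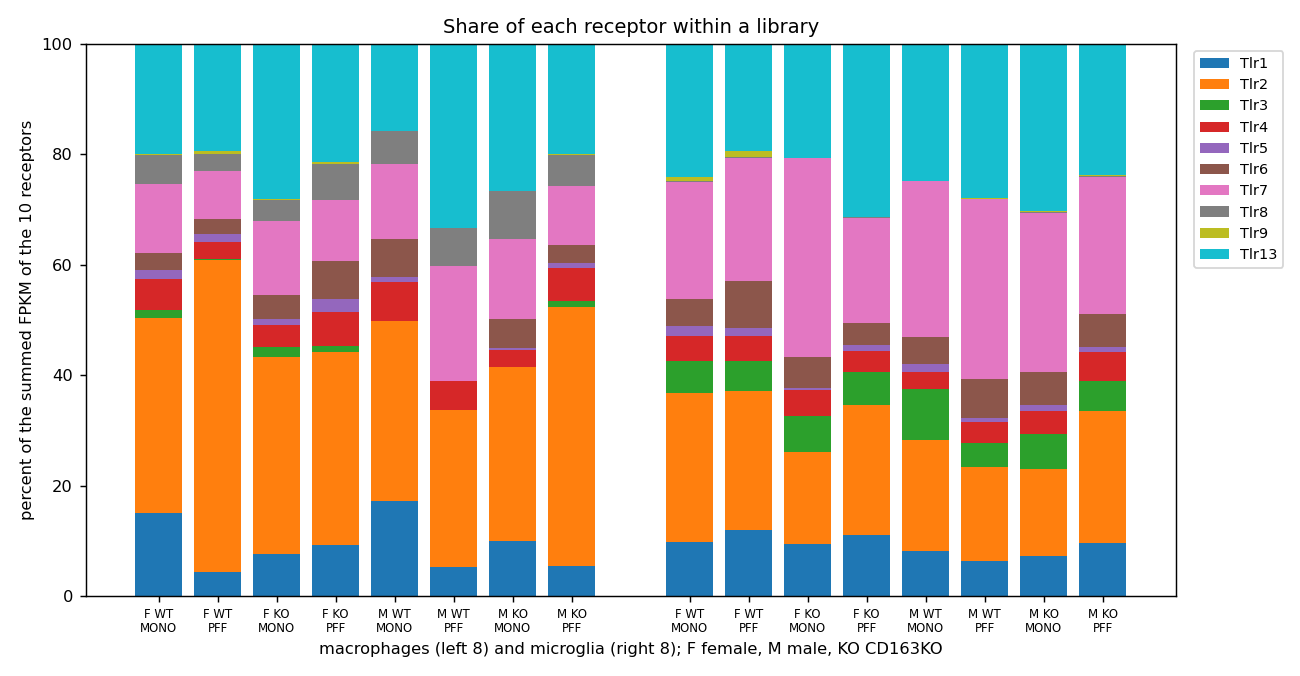
Percent of the summed FPKM of the 10 receptors that each receptor takes, as 1 stacked bar per library, with 8 macrophage libraries on the left and 8 microglia libraries on the right. The grey band of Tlr8 is visible in the macrophage bars only (3.25% to 8.61%), and the green band of Tlr3 is wide in microglia (4.39% to 9.23%).

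The partners of the receptors were compared between the populations in the same fit. Of 45 genes in lists of accessory receptors, chaperones, adaptors, kinases, transcription factors, inhibitors and the remaining family members, 44 were tested, 7 were called higher and 6 lower in microglia, with a median of 0.231, beside 18.4% called and a median of 0.321 over all genes of the same fit. The accessory receptors had 3 of 6 genes lower in microglia, and these were Cd14, the lipopolysaccharide co-receptor (-2.15, adjusted p = 0.00143, edgeR), Ly96, which binds lipopolysaccharide on Tlr4 (-1.29, adjusted p = 0.0129, edgeR), and the scavenger receptor Cd36 (-5.93, adjusted p = 3.48e-05, edgeR). Tlr4 itself had a difference of 0.06. Among transcription factors, Irf7, an activator of type I interferon genes, was lower (-3.90, adjusted p = 0.00312, edgeR) and Irf8 higher (1.03, adjusted p = 0.00249, edgeR) in microglia. Of the 6 inhibitors 2 were lower, among them Nfkbia, which holds NF-kappaB in the cytoplasm (-1.57, adjusted p = 0.000653, edgeR). Of the 13 kinases and ubiquitin ligases 3 were higher, among them Irak2, a kinase recruited by Myd88 (1.48, adjusted p = 0.0176, edgeR), and Tab2, an adaptor of the kinase Map3k7 (1.50, adjusted p = 0.0179, edgeR). Likewise, 1 of 7 chaperone and trafficking genes, 1 of 5 adaptors and the 1 tested gene of the other family members were higher. With library totals in place of TMM factors, 9 of the 13 genes remained called. Those lost included Cd14 (-0.74, adjusted p = 0.0819), Nfkbia (-0.14, adjusted p = 0.810) and Ly96, whose difference turned to 0.13 (adjusted p = 0.876, edgeR).

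The treatment comparison asked whether fibrils changed the receptors relative to monomers. No member passed the test in either population. In macrophages, 9 members were tested, since Tlr9 had too few counts, and 0 of 11067 genes were called (0%), with 125 genes at an unadjusted p under 0.05, none of them a member, and 5 genes called by DESeq2. Tlr2, a receptor linked to extracellular α-syn, had 19.3 FPKM (female WT), 18.1 (female CD163KO), 106 (male WT) and 18.2 (male CD163KO) after PFF. After MONO it had 21.8, 14.6, 31.4 and, in the excluded library, 90.0 FPKM. The single high PFF value is that of the library that stood apart, and the log2 difference was 0.65 (SE 0.364, adjusted p = 1.0, edgeR) with it and 0.52 (SE 0.343) without it. Tlr4 had 1.01, 3.11, 19.4 and 2.34 FPKM after PFF and 3.49, 1.61, 6.81 and 8.45 after MONO in the same order. Its difference was 0.22 (SE 0.536) with the male WT PFF library and -0.18 (SE 0.420) without it. A shift of this kind was also seen for 3 endosomal members, with 0.52 (SE 0.677) against -0.10 (SE 0.327) for Tlr13, 0.28 (SE 0.665) against -0.39 (SE 0.347) for Tlr7 and 0.54 (SE 0.688) against -0.01 (SE 0.453) for Tlr8. The other 4 members were below 0 with this library, Tlr1 at -0.63 (SE 0.685), Tlr3 at -1.17 (SE 2.41), Tlr5 at -0.50 (SE 2.29) and Tlr6 at -1.25 (SE 2.01). The number of the 9 members above 0 was 5 with this library and 2 without it, and their median was 0.219 and -0.183. Other libraries moved the median as well, to 0.503 without female WT PFF, to -0.068 without female CD163KO PFF and to 0.031 without male WT MONO. The lowest difference of any member went from -4.46 (without female WT PFF) to -0.91 (without male WT PFF).

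In microglia, the TMM-scaled CPM of Tlr2 was 54.7 to 104 over the 8 libraries, that of Tlr4 35.0 to 63.9 and that of Tlr13 103 to 193. PFF against MONO gave -0.05 (SE 0.288) for Tlr2, -0.12 (SE 0.262) for Tlr4, -0.06 (SE 0.275) for Tlr1, 0.12 (SE 0.321) for Tlr6 and -0.06 (SE 0.339) for Tlr13. Tlr3 (-0.61, SE 0.319, adjusted p = 0.761) and Tlr7 (-0.48, SE 0.350, adjusted p = 0.797) had the lowest values (edgeR). For Tlr3 the matched pairs differed by -1.31 in male WT mice, which includes the male WT PFF library that stood apart, and by -0.06 and -0.16 in WT and CD163KO females. Its difference was -0.48 (SE 0.336) without male WT PFF and -0.13 (SE 0.343) without male WT MONO. For Tlr7, the FPKM was 57.4 (female WT), 57.2 (female CD163KO), 17.4 (male WT) and 56.7 (male CD163KO) after PFF, and 59.9, 120, 86.0 and, in the excluded library, 28.2 after MONO. The high MONO value belongs to the library labelled female CD163KO MONO that held Y-linked counts. Without this library the difference was -0.002 (SE 0.396) for Tlr7 and -0.74 (SE 0.439) for Tlr3. Tlr5, Tlr8 and Tlr9 had few counts, with differences of 0.16 (SE 0.870), 1.04 (SE 2.64) and 1.54 (SE 1.94). With single libraries left out, the highest difference of any member went from 1.01 (without male CD163KO PFF) to 3.04 (without male WT PFF). Without female WT MONO and without male WT PFF, 1 member each had an unadjusted p under 0.05 (edgeR), and 0 were called. The main fit gave the following counts. Of 11737 genes 0 were called (0%), with 737 at an unadjusted p under 0.05, none of them a member, and 30 genes called by DESeq2.

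CD163KO against WT asked whether loss of the scavenger receptor moved the family. In macrophages 1 of 11067 genes was called (0.00904%), Cd163 itself, and 0 of 9 members, with 76 genes and no member at an unadjusted p under 0.05 and 1 gene called by DESeq2. The differences were -0.52 (SE 0.358) for Tlr2, -0.37 (SE 0.551) for Tlr4, -0.56 (SE 0.732) for Tlr1, -0.64 (SE 0.681) for Tlr7, -0.52 (SE 0.702) for Tlr8 and -0.45 (SE 0.672) for Tlr13. The 3 members above 0 had large errors, Tlr3 at 3.01 (SE 2.50), Tlr6 at 0.96 (SE 1.92) and Tlr5 at 0.56 (SE 2.25). With single libraries left out, the highest difference of any member went from 1.07 (without male CD163KO PFF) to 5.09 (without female CD163KO MONO). The median over the 9 members was -0.449, and it moved to -0.881 without the female WT PFF library, to -0.016 without the male WT PFF library and to 0.082, with 6 of 9 members above 0, without the male CD163KO PFF library. In microglia 0 of 11737 genes were called (0%) and 0 of 10 members, with 141 genes and no member at an unadjusted p under 0.05 and 3 genes called by DESeq2. The well-counted members lay between -0.24 (Tlr6, SE 0.321) and 0.31 (Tlr4, SE 0.257), with Tlr2 at -0.02 (SE 0.289), Tlr7 at 0.21 (SE 0.360) and Tlr3 at 0.17 (SE 0.332). Tlr9, the CpG DNA sensor, had the largest difference (-1.74, SE 1.84, adjusted p = 1.0, edgeR). Its counts in female microglia were 68 (MONO) and 170 (PFF) in WT and 12 and 8 in CD163KO. The 12 counts are those of the library with Y-linked counts, without which the difference was 0.24 (SE 0.357) for Tlr2 and -0.25 (SE 0.397) for Tlr7. For Tlr9 it was -1.14 without this library, -0.79 without female WT MONO, -0.88 without female CD163KO PFF, -2.73 without male WT MONO and -3.72 without male CD163KO PFF, and it was not called in any of these fits. Male microglia did not repeat the pattern of the females, with 1 and 7 counts in WT and 18 (excluded library) and 28 in CD163KO. These are the male libraries in which the Cd163 counts ran against the genotype labels.

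Males were compared with females because 3 members are X-linked and the study described sex differences. No member was called in macrophages (0 of 11067 genes, 0%, with 150 genes at an unadjusted p under 0.05 and 16 called by DESeq2) or in microglia (0 of 11737 genes, 0%, with 193 and 17). No member had an unadjusted p under 0.05 in either. For the X-linked members the differences, male minus female, were 1.03 (SE 0.742) for Tlr7, 0.93 (SE 0.736) for Tlr8 and 0.67 (SE 0.738) for Tlr13 in macrophages. Single libraries moved them by over 1.5 times, apart from Tlr8 without the male WT MONO library. Without the female WT PFF library they were 0.28, 0.25 and 0.01, without the male WT PFF library 0.25, 0.45 and -0.17, without the male WT MONO library 1.59, 1.29 and 1.32, and without the male CD163KO PFF library 1.69, 1.42 and 1.29. Tlr3 (-2.44, SE 2.45), Tlr5 (-1.43, SE 2.10) and Tlr6 (-0.30, SE 1.81) were the members below 0 in macrophages. With single libraries left out, the lowest difference of any member went from -5.01 (without male CD163KO PFF) to -1.49 (without male WT PFF). In microglia the differences of the X-linked members were 0.21 (SE 0.368) for Tlr7, -0.46 (SE 1.99) for Tlr8 and -0.01 (SE 0.348) for Tlr13. This fit counted the microglia library with Y-linked counts as female, and without it the differences were 0.36 for Tlr7, -1.11 for Tlr8 and -0.04 for Tlr13. Of the 10 members, 2 were above 0 in microglia, and 1 to 5 when single libraries were left out, the 5 without female CD163KO PFF. Among the 3 male macrophage libraries in this fit, Tlr7 had 13.1 (WT MONO), 76.5 (WT PFF) and 4.16 FPKM (CD163KO PFF), of which 2 lay above and 1 within the female range of 2.96 to 7.72 FPKM.

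The interaction of genotype and treatment, which asks whether the PFF difference was another in CD163KO than in WT mice, called 0 of 11067 genes in macrophages (0%, with 47 at an unadjusted p under 0.05 and 9 called by DESeq2) and 0 of 11737 in microglia (0%, with 505 and 29). No member had an unadjusted p under 0.05. In macrophages the interaction was -2.21 (SE 1.03) for Tlr13, -1.77 (SE 1.18) for Tlr7 and -1.05 (SE 0.783) for Tlr2 (adjusted p = 1.0, edgeR), and without the male WT PFF library it was -0.72, -0.12 and -1.06. Above 0 were 4 of the 9 members, Tlr3 (4.53, SE 5.64), Tlr6 (4.04, SE 5.06), Tlr5 (3.65, SE 6.22) and Tlr1 (0.64, SE 1.61). Without the male WT PFF library 6 of the 9 were above 0, and the highest value of any member was 1.89. In microglia the library labelled female CD163KO MONO, which held Y-linked counts, is the only CD163KO MONO library in the fit, so that the microglia values of the interaction rest on it. The interaction there was -1.22 (SE 0.660) for Tlr7 and -1.08 (SE 0.624) for Tlr6 (adjusted p = 0.952, edgeR). In microglia 7 of the 10 members were above 0, with a median of 0.331. Tlr5 had 2.55 (SE 1.68), with 46 counts in that library and 164 in female CD163KO PFF. Tlr8, with 0 and 36 counts in the same libraries, is given no fold because the group is at 0. Without the female WT PFF macrophage library, the macrophage fit was left with 1 WT PFF library. The interaction was then -2.45 for Tlr7 and -2.84 for Tlr13, given as effect sizes only. Tlr6 had 0 counts in the 1 WT PFF library left and is given no fold.

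Since the study examined females most closely, single libraries of females were also compared, 1 against 1 and without a test. Differences are those of log2(TMM-scaled CPM + 1), with a limit of 1. The comparisons with female CD163KO MONO microglia rest on the library that holds Y-linked counts. In WT females, PFF against MONO in macrophages gave -1.50 for Tlr1 (88.8 against 365 counts) and -1.46 for Tlr3 (10 against 55 counts), and these 2 of 10 members stood against 29.3% of all genes past the limit. The summed FPKM of marker lists also differed between these libraries, 22200 after PFF against 121000 after MONO for neutrophils, 306 against 1460 for monocytes, 2180 against 12600 for choroid plexus, 308 against 13.8 for pituitary and 104 against 31.0 for endothelium, and their part in the differences was not tested. In CD163KO females 0 of 10 members passed in macrophages, against 33.6% of genes. In microglia of WT females 0 of 10 members passed, against 21.1% of genes, and the largest difference was 0.78 for Tlr6. In microglia of CD163KO females Tlr5 (1.28), Tlr8 (1.06, 36 against 0 counts) and Tlr7 (-1.04) passed, 3 of 9 members compared, against 23.7% of genes.

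CD163KO against WT in macrophages of females given MONO had 0 of 9 members past the limit, against 33.9% of genes. In macrophages of females given PFF, Tlr3 (1.09), Tlr6 (1.01) and Tlr2 (-1.003) passed, 3 of 10 members against 31.9% of genes. Between these libraries the summed FPKM, CD163KO against WT, was 5060 against 1960 for border-associated macrophages, 1370 against 617 for dendritic cells, 4370 against 2180 for choroid plexus, 4.95 against 308 for pituitary and 18.8 against 104 for endothelium, and their part in the differences was not tested. Tlr2 had 620 counts in CD163KO and 1173 in WT there, but near-equal FPKM (18.1 and 19.3), and on the FPKM scale its difference was -0.09. In microglia of females given MONO, Tlr7 (1.07), Tlr5 (-1.79), Tlr8 (-1.19) and Tlr9 (-1.80) passed, 4 of 10 against 32.9% of genes. In microglia of females given PFF, Tlr9 (-2.38) passed, 1 of 10 against 13.6% of genes. On the TMM scale Tlr4 was within the limit in all 8 of these comparisons, between -0.68 and 0.69. On the FPKM scale it passed in 2 of them, both in macrophages, with -1.16 for PFF against MONO in WT females and 1.03 for CD163KO against WT in females given PFF. The shares of members past the limit were thus from 0 to 4 genes beside shares of all genes between 13.6% and 33.9%.

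**Figure D4:**
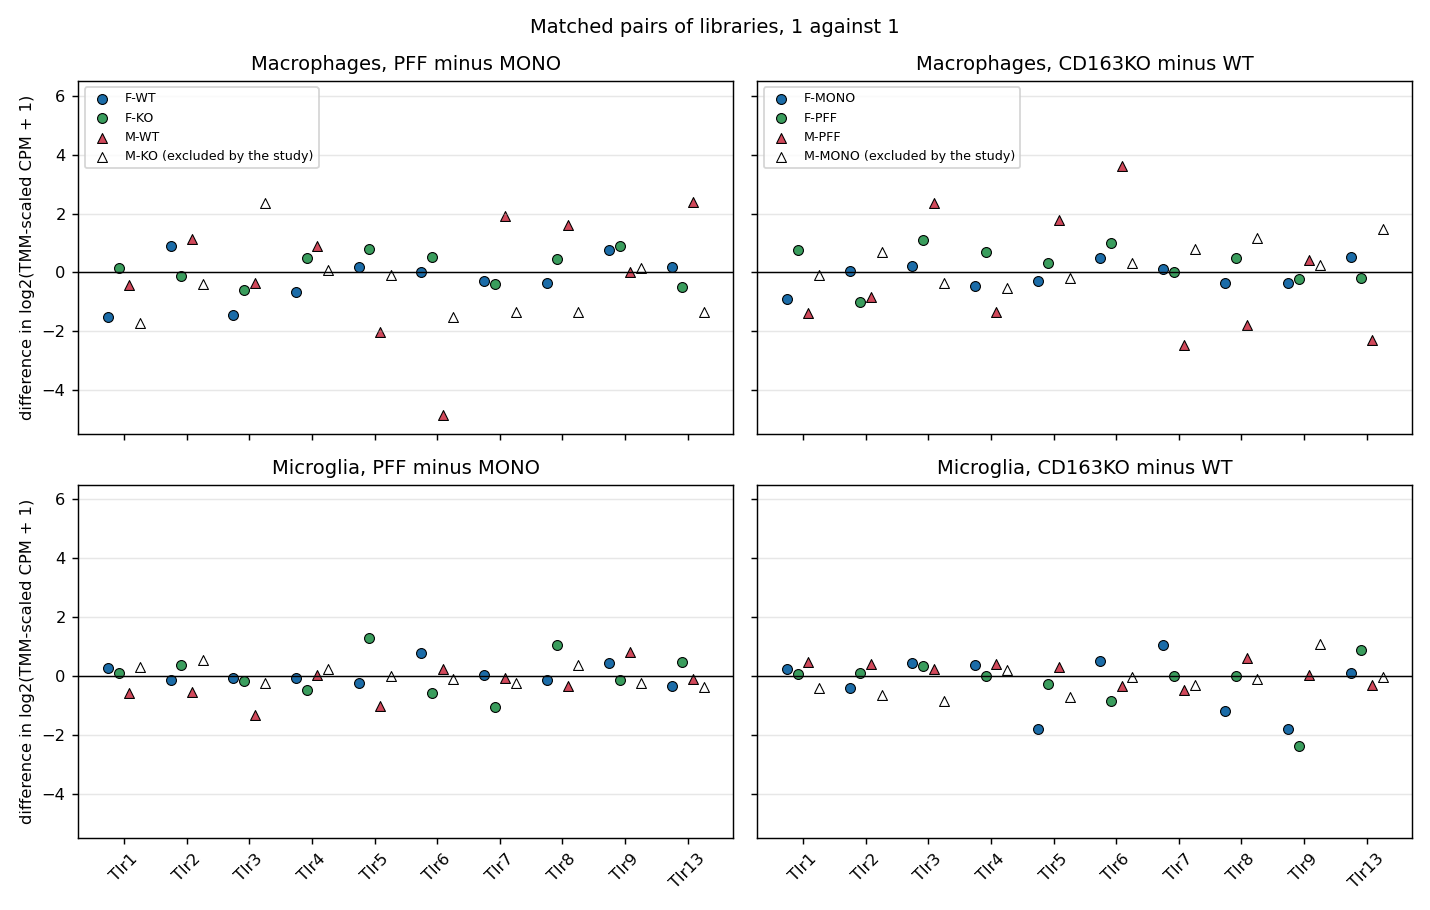
Difference in log2(TMM-scaled CPM + 1) of each receptor between libraries matched for the other factors, for PFF minus MONO (left) and CD163KO minus WT (right) in macrophages (top) and microglia (bottom), 1 point per pair, with open triangles for pairs that hold an excluded library. In macrophages the male pairs with the WT PFF library (filled triangles) lie farthest from 0 for Tlr6, Tlr7, Tlr8 and Tlr13, and in microglia most points lie within 1 of 0.

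Within macrophages the correlations among Tlr7, Tlr8 and Tlr13 were high, with the libraries that stood apart at the upper end. Over the 8 libraries, Pearson's r of log2(TMM-scaled CPM + 1) was 0.949 between Tlr7 and Tlr13, 0.938 between Tlr7 and Tlr8 and 0.880 between Tlr8 and Tlr13. These points share their libraries and scaling factors. The male WT PFF and male CD163KO MONO libraries, the latter excluded by the study, held the highest values of these genes. Among the remaining libraries, male WT MONO had the highest Tlr7 (5.845) and Tlr8 (4.894) but the lowest Tlr13 (6.126). Correlations without the libraries at the upper end were not computed. Tlr4 had r of 0.807 with Tlr7 and 0.806 with Tlr8, Tlr2 had 0.784 with Tlr13, and Tlr6 had -0.61 with Tlr7. Over the 8 microglia libraries, r between Tlr7 and Tlr13 was 0.163. For the 4 members with the highest levels, the genes most alike over all 16 libraries were Taok1, Primpol and Vps54 for Tlr1 (r from 0.821 to 0.848), Nsf, Themis2 and Cers6 for Tlr2 (0.860 to 0.904), Commd8, Eif4a2 and Tgfbr2 for Tlr7 (0.947 to 0.979) and Vps8, Zfp512 and Mknk1 for Tlr13 (0.899 to 0.916). Within macrophages, Mknk1 was also the gene most like Tlr13 (r = 0.996), and within microglia Commd8 was the gene most like Tlr7 (r = 0.958).

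Tlr1 and Tlr6 share sequence. Of the 50-base runs in the annotated transcripts of Tlr1, 13.6% also occur in those of Tlr6, and 12.3% of the runs of Tlr6 occur in Tlr1, so that reads from these stretches were divided by estimation and their separate values are uncertain. Tlr2, Tlr3, Tlr5, Tlr7, Tlr8, Tlr9 and Tlr13 shared no run of 50 bases with another gene.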

How the data were processed

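Reads were mapped by the authors to transcripts with Bowtie2 (mm10 in the submitters' processing notes) and quantified with RSEM. The deposited tables list, per RefSeq transcript, an estimated count without normalization and an FPKM made by the authors with RSEM. Transcripts were summed per symbol, and unlisted ones were taken as 0. Estimated counts were rounded. Genes with at least 10 counts in at least 3 libraries of a fit were scaled with TMM and tested with edgeR 4.0.16 (quasi-likelihood, R 4.3.3), with Benjamini-Hochberg adjustment over all genes tested. Called means an adjusted p of at most 0.05 and a log2 difference of at least 1, the limits of the study. Population was tested in 14 libraries with the condition as a block, which pairs both populations sorted from the same groups of mice. Treatment, genotype and sex were tested additively in the 7 retained libraries of a population (3 residual degrees of freedom, 2 with the interaction). With 1 library per condition, p-values measure the spread between libraries of different conditions, and assume that the other factors add up. Alternatives were RLE factors, library totals, no count filter, DESeq2 1.42.0, limma 3.58.1 on log2(FPKM + 1) and log2(FPKM + 0.1), no limit on the difference, all 16 libraries, each library left out, no block and a joint fit. Named genes are all members, called genes of the lists (at most 8 per comparison), and the 3 genes most correlated with the 4 highest members (mean CPM of at least 5). The fits were tested on simulated data. The members and gene lists were chosen with earlier results of these data known. The marker lists beyond those of the report gave, as summed FPKM in macrophages and microglia, NK and T cells 41.1 to 212 and 0.12 to 5.65, B cells 11.4 to 135 and 16.6 to 73.5, dendritic cells 617 to 1670 and 18.6 to 85.8, choroid plexus 84.9 to 12600 and 263 to 2540, pituitary 0 to 308 and 0.14 to 157, neurons and macroglia 11.3 to 104 and 7.09 to 116, and endothelium 4.01 to 104 and 4.32 to 36.9.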

Additional observations from a re-analysis of the deposited data

Results flagged for a closer look

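In macrophages, 2 members had 1 library far from the other 7. The gap between the lowest value and the next, divided by the whole range of log2(TMM-scaled CPM + 1), was 0.619 for Tlr5 and 0.671 for Tlr6, above Dixon's critical value for 8 libraries. In both the lowest library was male WT PFF, which held no count of either gene, while the same library held 964 counts of Tlr1 and 5497 of Tlr2. Chance passes about 1 in 20 such groups, and 20 groups of 8 libraries were examined. That male WT PFF library listed 8375 genes, against 9773 to 12988 in the other macrophage libraries. The part of the library itself in these zeros was not tested.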

How the results depend on the processing

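The 3 members called between the populations (Tlr3, Tlr7 and Tlr8) kept their direction and their call under every alternative, and 3 members remained called whichever library was left out (3 to 3). Up to 8 members were called under other settings, which also called more of all genes. With library totals 7 were called, beside 6291 of 12819 genes. Limma called 7 on log2(FPKM + 1), beside 5621 of 12819 genes, and 8 on log2(FPKM + 0.1), beside 6450 of 12819. The female libraries gave 5, beside 3567 of 12128 genes. The main fit called 18.4% of all genes. The difference of Tlr2 reversed with library totals (1.22) and with limma at either pseudocount (0.90 and 0.92), that of Tlr5 in the female libraries (-0.04), and that of Tlr4 when 1 of 4 libraries was left out (-0.13 to 0.33 over all 14). Genes called between the populations numbered 2358 with the condition as the replicate block and 2709 with no replicate block, 6291 with library totals, 4227 with DESeq2, 5621 and 6450 with limma at the larger and smaller pseudocount, 3567 in the female libraries, 3323 in these without CD163KO MONO, 4074 without both male WT PFF libraries (the last 3 chosen after seeing the data) and 1725 to 4083 over the single libraries left out, the highest without either male WT PFF library. The cause was not tested.

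Within a population, 0 members were called in the 8 comparisons under every alternative, except for the interaction in macrophages without the female WT PFF library. That fit leaves 1 WT PFF library, so its calls of members are not read as a result. The interaction could not be fitted without the female CD163KO MONO library. Counts of all genes called moved as follows. For PFF against MONO in macrophages (0) they were 1 with library totals, 5 with DESeq2, 1 and 2 with limma and 0 to 0 over the libraries left out. For PFF against MONO in microglia (0) they were 2 with library totals, 11 without the count filter, 30 with DESeq2, 1 in the joint fit and 0 to 1 without single libraries. For CD163KO against WT they were 3 with limma at the smaller pseudocount and 0 to 5 without single libraries in macrophages (1), where the 5 came without the male WT PFF library, and in microglia (0) 19 without the filter, 3 with DESeq2 and 0 to 0 without single libraries. For male against female in macrophages (0) they were 6 with library totals, 1 without the filter, 16 with DESeq2, 5 and 8 with limma, 1 with the male CD163KO MONO library, 1 in the joint fit and 0 to 0 without single libraries. In microglia (0) they were 5, 6, 17, 3 and 3 under the first of these settings and 0 to 2 without single libraries. For the interaction they were 5 with library totals, 9 with DESeq2, 2 and 6 with limma and 2 to 3504 without single libraries in macrophages (0), and 1, 29, 1 and 1, 105 without the filter and 0 to 147 without single libraries in microglia (0), the highest in both without the female WT PFF library. In single females, FPKM in place of TMM-scaled CPM gave 4 members past the limit instead of 2 for PFF against MONO in WT macrophages (41.5% of all genes on the FPKM scale), 1 instead of 0 for CD163KO against WT in MONO macrophages (27.1%), 2 instead of 4 in MONO microglia (30.5%) and 2 instead of 3 for PFF against MONO in CD163KO microglia (20.9%). For CD163KO against WT in PFF macrophages it gave 4 (Tlr1, Tlr4, Tlr6 and Tlr8) instead of 3 (Tlr2, Tlr3 and Tlr6), beside 34.7% of all genes. Low counts of Tlr3, Tlr5, Tlr6, Tlr8 and Tlr9 limit their precision in the population where they are low.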
